A study of Mus musculus with 4 samples.

Results

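Chromatin accessibility at 9 genes of the macrophage and the Fc gamma receptor family was followed through inguinal white adipose tissue of mice. The genes were Csf1r, Adgre1, Mrc1, Cd163, Trem2, Fcgr1, Fcgr2b, Fcgr3 and Fcgr4. They are 9 of the 17149 protein-coding genes that carried at least 1 peak, out of 21897 with a unique symbol, and they hold 49 of the 189598 peaks. A gene's value was the sum over the peaks on its body and the 2000 bases upstream (mm10). The genes were picked by name and with their accessibility across the annotated cell clusters in view, so their levels between clusters are described here with no test. The groups were part of that view too, so p-values of these genes between groups are not independent evidence.

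The study profiled single nuclei by ATAC-seq, which records the DNA that a transposase can reach in each nucleus. C57BL/6J mice were 8 weeks old, and nuclei came from whole inguinal fat. The day 0 group stayed at room temperature (22 °C), 3 groups were kept in the cold (6.5 °C) for 1, 3 or 7 days, and 3 groups received 1 mg/kg of the β3-adrenergic agonist CL-316,243 (CL) at room temperature for 1, 3 or 7 days. Each of the 7 groups held 3 mice, and the 21 mice gave 32552 nuclei in 12 annotated clusters. The groups, mice and clusters are those of the deposited table of nuclei, because the 4 samples with labels of their own were sequencing lanes.

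The macrophage cluster held 1229 nuclei, the dendritic cell cluster 677, the B cell cluster 11967, and the white and beige adipocyte clusters 5935 and 1069. A macrophage nucleus had reads in a median of 1128 peaks, against 2561 in a white adipocyte nucleus. The total count of a macrophage library, meaning all macrophage nuclei of 1 mouse, ran from 18916 to 215608. Of 15 further macrophage marker genes, 9 were highest in the macrophage cluster. The summed level of all 15 there was 1130.2 CPM (counts scaled to a common library total), against 796.4 in dendritic cells, 584.8 in white adipocytes and 548 in B cells. Cx3cr1 gave 442.1 and Mertk 208.9 of the macrophage sum. These 2 genes were highest in T cells and in vascular endothelial cells, so the sum is not specific to macrophages. Mouse 3 of the 1-day CL group stood apart: macrophages made up 15.1% of its nuclei and B cells 5.94%, while macrophages were between 1.95% and 6.08% of the nuclei in the other 20 mice. Cell barcodes were shared by 4824 pairs of nuclei from different mice, all of them between mice of the same treatment and mouse number. The members of such a pair were in the same cluster in 21.5% of cases, where the make-up of the mice alone gives 20.8%.

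Macrophages of adipose tissue clear dying adipocytes and handle released lipid. CSF1R is the receptor for the growth factor that macrophages need to survive, ADGRE1 is the F4/80 antigen, MRC1 and CD163 are scavenger receptors of resident macrophages, and TREM2 senses lipid in lipid-associated macrophages. Fc gamma receptors bind the constant part of immunoglobulin G: FCGR1, FCGR3 and FCGR4 signal through the shared activating gamma chain, and FCGR2B inhibits, also on B cells. Fcgr2b (chr1:170958617-170976547), Fcgr4 (chr1:171018920-171029761) and Fcgr3 (chr1:171051174-171064935) lie side by side in mm10, and Fcgr1 lies apart from them (chr3:96282909-96293969).

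The starts of the 4 Fc gamma receptor genes and of Trem2 are shown because the results turn on which peak lies at the start. These are RefSeq promoters (GRCm38.p6, the mm10 assembly), 250 bases before to 50 after the start, on the strand of the gene. Capitals mark exact matches, on either strand, to letters searched for the myeloid factors PU.1 (GAGGAAGT), PU.1 with IRF (GGAANTGA), C/EBP (TTGCNNAA), RUNX (TGTGGT) and AP-1 (TGANTCA).
Fcgr1 promoter, chr3:96293920-96294219: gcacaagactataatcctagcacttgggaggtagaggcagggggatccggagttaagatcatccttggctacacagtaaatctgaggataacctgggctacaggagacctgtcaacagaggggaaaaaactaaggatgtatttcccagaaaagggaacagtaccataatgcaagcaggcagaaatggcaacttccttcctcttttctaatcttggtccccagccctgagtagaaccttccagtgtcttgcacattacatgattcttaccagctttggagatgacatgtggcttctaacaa
Fcgr2b promoter, chr1:170976022-170976321: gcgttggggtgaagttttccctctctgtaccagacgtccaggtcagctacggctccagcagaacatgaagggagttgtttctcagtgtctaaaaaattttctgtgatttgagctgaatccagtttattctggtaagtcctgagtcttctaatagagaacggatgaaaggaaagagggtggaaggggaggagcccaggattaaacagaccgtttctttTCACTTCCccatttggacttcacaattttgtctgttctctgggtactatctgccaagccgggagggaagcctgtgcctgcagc
Fcgr3 promoter, chr1:171059354-171059653: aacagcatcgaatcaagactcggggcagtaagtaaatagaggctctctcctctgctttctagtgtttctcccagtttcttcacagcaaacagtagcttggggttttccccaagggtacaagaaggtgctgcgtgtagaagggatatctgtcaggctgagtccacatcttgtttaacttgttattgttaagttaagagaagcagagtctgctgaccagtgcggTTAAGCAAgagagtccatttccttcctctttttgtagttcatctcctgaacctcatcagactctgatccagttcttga
Fcgr4 promoter, chr1:171018676-171018975: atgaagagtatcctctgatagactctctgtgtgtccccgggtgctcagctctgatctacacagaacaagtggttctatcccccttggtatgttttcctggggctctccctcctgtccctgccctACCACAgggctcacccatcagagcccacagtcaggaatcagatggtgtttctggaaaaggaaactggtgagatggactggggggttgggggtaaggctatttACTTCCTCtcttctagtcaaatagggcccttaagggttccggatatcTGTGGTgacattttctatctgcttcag
Trem2 promoter, chr17:48346151-48346450: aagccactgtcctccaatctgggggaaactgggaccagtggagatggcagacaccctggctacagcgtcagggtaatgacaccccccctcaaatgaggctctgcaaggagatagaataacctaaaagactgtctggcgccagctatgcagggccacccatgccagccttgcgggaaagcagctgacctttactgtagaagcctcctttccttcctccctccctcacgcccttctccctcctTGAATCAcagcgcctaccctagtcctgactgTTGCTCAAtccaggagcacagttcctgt

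In these 300 bases Fcgr4 held 1 PU.1 and 2 RUNX matches, Fcgr2b held 1 PU.1-IRF match, Fcgr3 held 1 C/EBP match, Trem2 held 1 C/EBP and 1 AP-1 match, and Fcgr1 held none. Of all 32851 promoters in the table, 3.2% held the PU.1 letters, 8.13% PU.1-IRF, 10.8% C/EBP, 16.8% RUNX and 7.81% AP-1.

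Peaks that differed between clusters are shown next, on the plus strand, as the central bases of each peak (at most 300). They are named by the distance of their centre from the GENCODE gene start. By cluster mean, the Fcgr3 -421 peak was highest in the T cells outside CD4 and CD8. Capitals mark the same motifs, except in the Fcgr3 -421 peak, where they mark the whole tRNA gene n-TDgtc3 of the RefSeq annotation, which lies on the minus strand.
Fcgr2b +8702, strongest in macrophages, chr1:170967696-170967995: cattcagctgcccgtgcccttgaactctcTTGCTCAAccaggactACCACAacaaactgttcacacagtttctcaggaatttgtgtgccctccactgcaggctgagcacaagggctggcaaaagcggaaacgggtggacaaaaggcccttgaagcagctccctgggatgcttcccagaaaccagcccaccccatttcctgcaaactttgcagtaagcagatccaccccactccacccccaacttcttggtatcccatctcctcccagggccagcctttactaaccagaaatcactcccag
Mrc1 +20727, strongest in macrophages, chr2:14249970-14250269: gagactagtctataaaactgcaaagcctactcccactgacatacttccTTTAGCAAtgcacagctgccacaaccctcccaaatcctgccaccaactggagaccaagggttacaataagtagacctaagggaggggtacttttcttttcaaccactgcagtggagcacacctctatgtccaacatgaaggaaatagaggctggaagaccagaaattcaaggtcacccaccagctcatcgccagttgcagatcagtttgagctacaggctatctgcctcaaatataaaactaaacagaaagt
Trem2 +1033, strongest in macrophages, chr17:48347298-48347570: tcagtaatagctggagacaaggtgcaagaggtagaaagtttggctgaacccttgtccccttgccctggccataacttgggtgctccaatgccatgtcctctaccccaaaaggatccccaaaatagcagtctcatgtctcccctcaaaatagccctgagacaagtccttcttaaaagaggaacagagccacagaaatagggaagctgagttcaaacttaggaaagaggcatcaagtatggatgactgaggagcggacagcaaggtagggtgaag
Fcgr3 +4386, strongest in CD4 T cells, chr1:171060400-171060699: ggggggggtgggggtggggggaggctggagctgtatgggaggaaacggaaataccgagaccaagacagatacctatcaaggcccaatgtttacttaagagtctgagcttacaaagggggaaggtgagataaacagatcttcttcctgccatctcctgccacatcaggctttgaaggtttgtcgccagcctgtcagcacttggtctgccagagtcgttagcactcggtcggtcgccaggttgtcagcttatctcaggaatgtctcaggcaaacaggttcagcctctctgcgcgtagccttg
Fcgr3 -421, stronger in adipocytes than in macrophages, chr1:171065225-171065488: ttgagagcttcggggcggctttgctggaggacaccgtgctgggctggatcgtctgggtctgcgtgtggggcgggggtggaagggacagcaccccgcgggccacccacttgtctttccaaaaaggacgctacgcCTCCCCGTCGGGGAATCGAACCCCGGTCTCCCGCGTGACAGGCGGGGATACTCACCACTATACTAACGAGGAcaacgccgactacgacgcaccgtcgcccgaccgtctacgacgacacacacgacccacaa

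Of the 9 genes, 6 had their highest mean level in the macrophage cluster: Csf1r, Mrc1, Cd163, Fcgr1, Fcgr2b and Fcgr4. Adgre1 was highest in dendritic cells, Trem2 in beige adipocytes and Fcgr3 in CD4 T cells. The place of Trem2 changed with the nuclei used: it was highest in macrophages over libraries of at least 30 nuclei (15.4 CPM), with mice pooled (19.3 CPM) and in nuclei with at least 1000 entries (13.4 CPM). Cd163 was highest in vascular smooth muscle cells over libraries of at least 30 nuclei (21.5 CPM). Levels are given in CPM as the mean over mice ± SD, over libraries with at least 10 nuclei. A level counts each nucleus once for every peak of the gene in which it has reads. It has no correction for the length or number of peaks, so it is compared between clusters and not between genes.

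**Figure D1:**
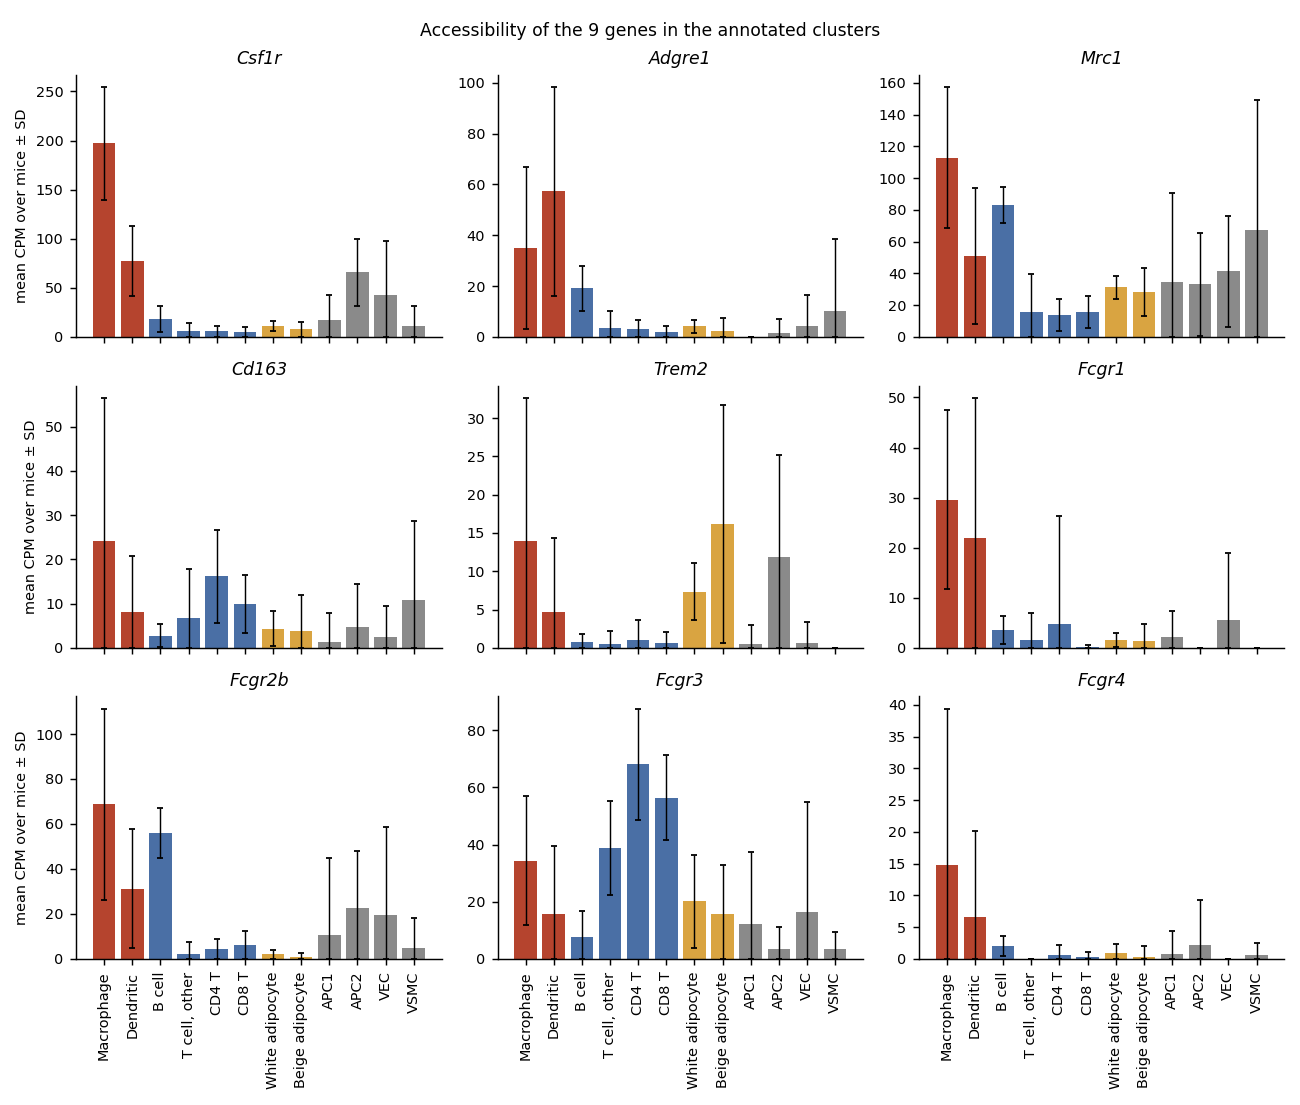
Each panel plots 1 gene, with the 12 annotated clusters on the x axis and its accessibility in CPM on the y axis. Bars are means over mice and error bars are the SD, drawn no lower than 0. Csf1r is the gene with the clearest step between macrophages (197.1 CPM) and every other cluster, while Fcgr3 is highest in CD4 T cells (68.1 CPM) and CD8 T cells (56.5 CPM).

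Csf1r was at 197.1 ± 57.3 CPM in macrophages (n = 21), with single mice between 71.9 and 303.5. Of its 12 peaks, 2 are also counted for the gene Hmgxb3, so part of the Csf1r value can belong to that gene. Dendritic cells followed with 77.3 ± 35.6 (n = 17), then the progenitor cluster APC2 with 65.7 ± 33.8 (n = 19), and white adipocytes had 11.1. Macrophages and dendritic cells were the only neighbouring clusters in the order whose mean ± SD ranges did not overlap. For each of the other 8 genes, all 11 neighbouring pairs of clusters in the order overlapped within their SD. Reads in a Csf1r peak were found in 21.8% of macrophage nuclei and 3.34% of white adipocyte nuclei, although the adipocyte nuclei were deeper.

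The scavenger receptor Mrc1 reached 112.9 ± 44.4 CPM in macrophages (n = 21) and 83.1 ± 11.2 in B cells (n = 21). It had 67.4 ± 81.9 in vascular smooth muscle cells (n = 10) and 31.4 ± 7.27 in white adipocytes (n = 21). Macrophages and B cells shared the +15158, +20727 and +66149 peaks of Mrc1 with different weights and differed at others. The +32847, +39948 and -108 peaks held 9.5%, 8% and 5.5% of the macrophage counts, against 0.437%, 0.437% and 0.35% of the B cell counts. The +15158 peak was strongest in B cells, with 37.0 CPM against 15.6 in macrophages, and the +20727 peak was strongest in macrophages, with 41.0 against 27.2, where it held 38% of the macrophage and 32.1% of the B cell counts. In adipocytes, white and beige together, the +66149 peak held 38.7% of the Mrc1 counts and the +8515 peak 32.7%. The +66149 peak was also open in macrophages (13.5% of their counts) and B cells (17.1%), and the +8515 peak held 4% and 1.31% there.

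Cd163, the haemoglobin scavenger receptor, had 24.2 ± 32.2 CPM in macrophages and 16.2 ± 10.6 in CD4 T cells. Almost all of its macrophage signal was in the +17150 peak, with 20.8 CPM. Cd163 counts were sparse: 5 of the 21 macrophage libraries had none, and the 21 held 37 counts in all.

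Adgre1 had 57.2 ± 41.0 CPM in dendritic cells (n = 17) and 35.0 ± 31.9 in macrophages (n = 21), which overlapped widely. B cells had 19.1 ± 8.73 and white adipocytes 4.14. The peak at its start (-32) was strongest in macrophages, at 13.1 CPM. Dendritic cells led instead at the +4277 peak, with 20.8 CPM against 0.684 in macrophages.

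Among the Fc gamma receptors, the high-affinity receptor gene Fcgr1 had 29.6 ± 17.8 CPM in macrophages and 21.9 ± 28.0 in dendritic cells. Its start peak (-50) was at 11.9 CPM in macrophages and had 0 counts in the 17 dendritic cell libraries, which allows up to 2.75 CPM (3 counts of the summed total, counting error only). The +9369 peak was at 17.7 CPM in macrophages and 21.9 in dendritic cells. Fcgr4 had 14.7 ± 24.6 CPM in macrophages and 6.62 in dendritic cells, and 12 of the 21 macrophage libraries had no Fcgr4 count.

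The inhibitory receptor gene Fcgr2b had 68.7 ± 42.5 CPM in macrophages, 56.0 ± 11 in B cells and 31.2 in dendritic cells. Macrophages and B cells shared the +591 peak and differed at +8702. The peak next to the start (+591) was strongest in B cells, with 46.1 CPM against 24.9 in macrophages and 22.0 in dendritic cells, and held 86.2% of the Fcgr2b counts of B cells and 33.1% of those of macrophages. The +8702 peak, which touches a coding exon and held 34.7% of the macrophage counts, reached 26.1 CPM in macrophages but 1.64 in B cells and 0.863 in dendritic cells. Its window, printed above, holds 1 C/EBP and 1 RUNX match.

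**Figure D2:**
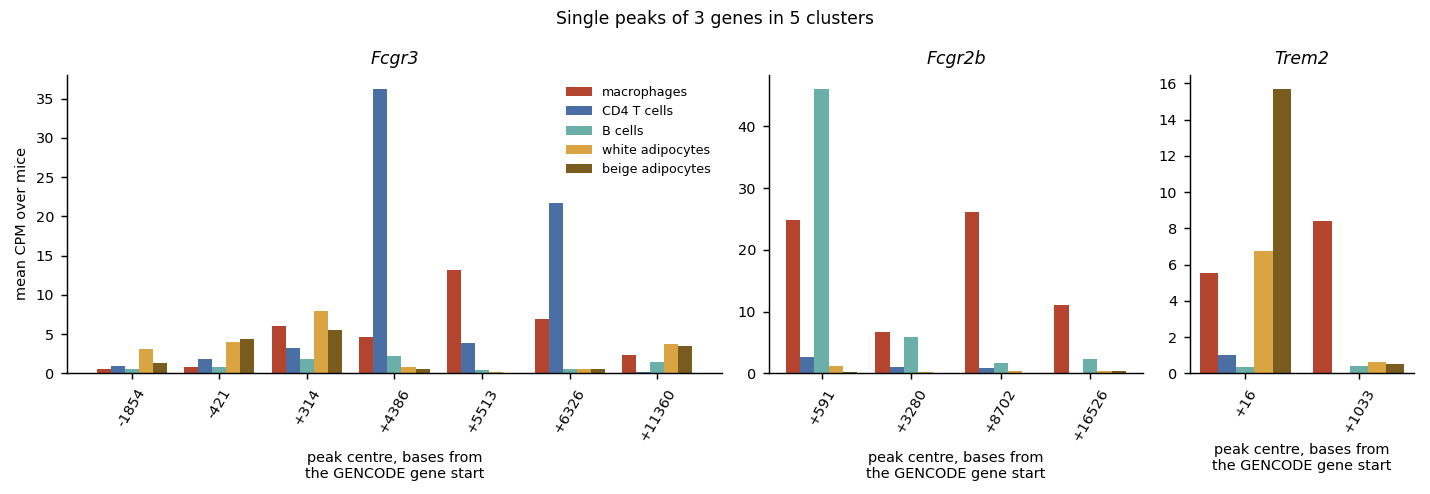
Each panel gives the single peaks of Fcgr3, Fcgr2b or Trem2, with the distance of the peak centre from the GENCODE gene start on the x axis (in bases, in order and not to scale) and the mean CPM over mice on the y axis; colours stand for 5 clusters. CD4 T cells lead at the Fcgr3 +4386 peak (36.3 CPM), B cells at Fcgr2b +591 (46.1 CPM), macrophages at Fcgr2b +8702 (26.1 CPM) and beige adipocytes at Trem2 +16 (15.7 CPM).

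Fcgr3 had 68.1 ± 19.4 CPM in CD4 T cells, 56.5 ± 14.8 in CD8 T cells and 38.9 ± 16.4 in the remaining T cells, each over 20 mice. Macrophages had 34.4 ± 22.7 and white adipocytes 20.2 ± 16.3 (n = 21 each). The T cell signal lay mainly in the +4386 peak, in an intron, at 36.3 CPM in CD4 T cells, 32.4 in CD8 T cells, 4.66 in macrophages and 0.788 in white adipocytes. The window of this peak holds none of the 5 motifs.

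The macrophage peak of Fcgr3 was +5513 (chr1:171059280-171059564), at 13.2 CPM in macrophages, 3.88 in CD4 T cells, 0.185 in white adipocytes and 0 in dendritic cells, which allows up to 2.75 CPM. GENCODE places the gene start at base 171064935, from 1 longer coding transcript (Fcgr3-202) of support level 3. The coding transcripts Fcgr3-201 and Fcgr3-204, of support level 1, and the RefSeq promoter printed above start at base 171059403, which the macrophage peak covers. That base is called the coding start below. The +4386, +314, -421 and -1854 peaks lie upstream of it, and +4386 and +314 lie inside the longer transcript. The centre of +4386 is 1146 bases from the coding start, and this peak is counted below with those inside the gene. The +314 peak is counted below with those farther upstream.

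Trem2 had 16.2 ± 15.5 CPM in beige adipocytes (n = 19), 13.9 ± 18.7 in macrophages (n = 21), 11.9 in APC2 and 7.35 ± 3.77 in white adipocytes (n = 21). The gene has 2 peaks, and they differed in where they were open. The start peak (+16) had 15.7 CPM in beige adipocytes, 6.73 in white adipocytes and 5.53 in macrophages. The +1033 peak had 8.40 in macrophages, 4.73 in dendritic cells and 0.622 in white adipocytes. Beige exceeded white adipocytes in 11 of the 19 mice with both, so the higher beige mean was not a feature of every mouse.

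Over the 49 peaks, 24 were highest in macrophages and 8 in dendritic cells. By the annotation, 23 peaks were intronic, 15 touched a coding exon, 5 touched an untranslated part of an exon, 2 another exon and 4 lay upstream. Outside Csf1r, whose sequence was not examined, the C/EBP letters were in 7 of the 15 windows highest in macrophages (46.7%) and in 2 of the 22 others (9.09%), against 18.5% of all 189598 peak windows. The PU.1 letters were in 2 of the 15 and 1 of the 22 (4.86% of all windows), and the RUNX letters in 4 of the 15 and 7 of the 22 (23.9%). AP-1 was in 1 and 3 (12.3%) and PU.1-IRF in 0 and 2 (10.1%).

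Other genes with a like profile over the 12 cluster means (Pearson's r of log2(CPM + 1)) included known myeloid genes. For Csf1r the 3 nearest were Sv2b (0.945), Csf2rb2 (0.934), a cytokine receptor chain, and Serpinb1b (0.929), each highest in dendritic cells. For Adgre1 they were Spi1 (0.981), which encodes PU.1, Ppfibp2 (0.953) and Car6 (0.921). Fcgr1 was closest to the C-type lectin gene Clec4a1 (0.922), then Mfap3 (0.908) and Vps9d1 (0.904), and Fcgr4 to Clec4a3 (0.96), Dmkn (0.945) and Mok (0.935). The nearest to Fcgr2b were Slc15a3 (0.939), Ctsh (0.932) and Ms4a7 (0.911), and to Mrc1 4930562C15Rik (0.922), Cst3 (0.913) and Phlpp2 (0.905). Fcgr3 was nearest to Ntpcr (0.942), Atp6v0a2 (0.923) and Sult2b1 (0.916), Trem2 to Sesn2 (0.892), Rbm47 (0.889) and Chuk (0.865), and Cd163 to Tmem104 (0.865), Tmem221 (0.85) and Lyzl4 (0.848). The 12 means come from the same mice and differ in depth, so these values describe the clusters only.

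Whether cold or CL changed the 9 genes within macrophages was examined across the 21 mice. None of them changed detectably. Only Csf1r and Mrc1 had enough counts to be tested, and the other 7 genes did not pass the filter on low counts. Of the 3587 genes tested with edgeR's quasi-likelihood test, 0% had a Benjamini-Hochberg adjusted p under 0.05 between any of the groups, 0% between treated and day 0, and 0% between CL and cold. Unadjusted p under 0.05 was found for 192, 177 and 175 genes, and DESeq2 called 0 in each.

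Csf1r in macrophages had 153.2, 242.0 and 145.8 CPM in the day 0 mice. The cold groups had 192.4, 210.7 and 226.7 at day 1, 269.8, 176.8 and 303.5 at day 3, and 213.6, 158.6 and 209.9 at day 7. The CL groups had 101.0, 177.7 and 287.6 at day 1, 172.2, 149.3 and 215.7 at day 3, and 241.0, 220.0 and 71.9 at day 7. The 7 groups overlapped throughout. The log2 difference was 0.26 (SE 0.21, edgeR adjusted p = 0.985) for treated minus day 0 and -0.05 (SE 0.19, adjusted p = 0.996) for CL minus cold.

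Mrc1 in macrophages ran from 87.6 to 126.4 CPM at day 0, from 53.4 to 174.4 in the cold and from 34.4 to 181.6 under CL. The 1-day CL mice (126.9 to 171.6) did not overlap those of 7-day cold (53.4 to 105.7). They lay above those of day 0 by less than a single count adds in any of these libraries. The other pairs of groups overlapped. The log2 difference was 0.07 (SE 0.25, edgeR adjusted p = 0.99) for treated minus day 0 and 0.31 (SE 0.21, adjusted p = 0.991) for CL minus cold. On simulated counts with the depth of these libraries, the test recovered 20.9% of genes changed by a factor of 1.5 between treated and day 0, 71.6% of those changed by a factor of 2 and 100% of those changed by a factor of 4. There 200 genes were changed together, and alike in all treated groups. These shares therefore do not give the recovery of a gene that changes alone, for which the adjustment is stricter. Because 0% of the 3587 genes tested in macrophages were called in each of the 3 contrasts, no list of pathway genes could have a call. The lists add nothing to that result: 0 of 9 tested genes of Fc receptor signalling, 0 of 6 of CSF1R and the lineage factors, 0 of 5 of TREM2 and lipid handling, and 0 of 1 scavenger gene.

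In dendritic cells none of the 9 genes passed the filter on low counts. Of 1736 genes tested there, 0.0576% were called between any of the groups, 0.0576% for treated minus day 0 and 0% for CL minus cold. At an unadjusted p under 0.05 the last contrast had 82 genes, and DESeq2 called 0.

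In B cells 4 of the 9 genes were tested: Csf1r, Adgre1, Mrc1 and Fcgr2b. None was called, where the share called among all 11441 genes was 2.13% between any of the groups, 0.743% for treated minus day 0 and 0.0175% for CL minus cold. Fcgr2b, the Fc receptor gene of B cells, had 64.1, 75.6 and 51.4 CPM at day 0, and between 34.3 and 78.9 in the 18 treated mice. Its log2 difference was -0.15 (SE 0.13, edgeR adjusted p = 0.68) for treated minus day 0 and 0.12 (SE 0.12, adjusted p = 0.778) for CL minus cold. In the Fc receptor signalling list, Syk, the kinase that the activating receptors recruit, fell by 0.29 on the log2 scale in treated B cells (SE 0.07, adjusted p = 0.0183), and it was the only one of 13 tested genes called. Mouse 3 of the 1-day CL group had the smallest B cell library (a total count of 43566). It had the highest B cell values of Csf1r (68.9 CPM, from 3 counts) and Fcgr3 (45.9 CPM, from 2 counts). Adgre1 was also highest there (45.9 CPM), while Fcgr2b (45.9 CPM) was the lowest of its group. Cd163, Trem2, Fcgr1 and Fcgr4 had no count in that library. A relation of these values to its share of macrophages was not tested.

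**Figure D3:**
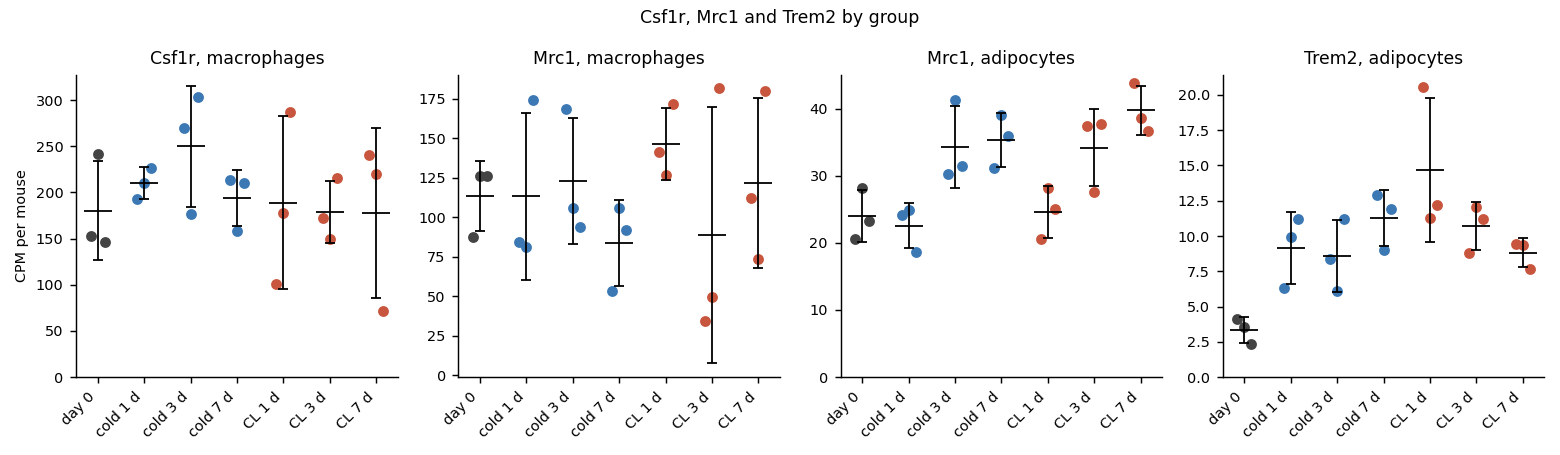
Each point is 1 mouse, with the 7 groups on the x axis and CPM on the y axis; horizontal bars are group means and error bars the SD (n = 3). In macrophages the groups overlap for Csf1r. For Mrc1 the 1-day CL mice (126.9 to 171.6 CPM) lie above those of 7-day cold (53.4 to 105.7). They lie above those of day 0 (87.6 to 126.4) by less than a single count adds. In adipocytes Trem2 lies at 4.11 CPM or below in the day 0 mice and at 6.11 or above in the treated mice. This gap is smaller than a single count adds in day 0 mouse 1 (2.05 CPM) or mouse 2 (3.53 CPM).

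Adipocytes are not known as a site of Fc gamma receptors or of most of the other genes, and Fcgr3 there was named as a check of stray myeloid signal. As a share of the macrophage level, white adipocytes had 2.89% for Fcgr2b, 5.4% for Fcgr1, 5.62% for Csf1r, 5.83% for Fcgr4, 11.8% for Adgre1 and 18.1% for Cd163. The share was higher for Mrc1 (27.8%), Trem2 (52.8%) and Fcgr3 (58.7%). The median over the 9 genes was 11.8%, against 32.1% over the 15 macrophage markers and 77.7% over all 11544 genes with at least 20 CPM in macrophages. The complement genes C1qa, C1qb and C1qc, which macrophages make, were the lowest of the 15, with between 1.05% and 1.33%. At the other end were Lyve1 (537%, with 2.37 CPM in macrophages), F13a1 (80.7%), Mertk (76.1%) and Cd14 (75.3%). None of the 15 markers was at 0 in white adipocytes.

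Fcgr3 in adipocytes, white and beige together, had 18.5, 7.05 and 9.28 CPM in the day 0 mice. Cold gave 6.28, 19.9 and 22.4 at day 1, 13.2, 18.3 and 11.2 at day 3, and 31.1, 13.5 and 15.1 at day 7. CL gave 20.5, 62.0 and 64.5 at day 1, 13.2, 30.3 and 21.9 at day 3, and 14.8, 10.4 and 7.65 at day 7. Mice 2 and 3 of the 1-day CL group were above all 19 others, and the value of mouse 1 of that group rested on 1 count.

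The 7 groups differed for Fcgr3 (edgeR adjusted p = 3.37e-09 over 14387 genes, of which 13.7% were called). CL exceeded cold by 0.77 on the log2 scale (SE 0.16, adjusted p = 0.0024, where 2.73% of genes were called), and treated minus day 0 was 0.75 (SE 0.32, adjusted p = 0.176, where 4.16% were called). Fcgr3 in adipocytes was named in the choice of genes, so these p-values are not independent evidence. The CL minus cold call was lost without mouse 3 of the 1-day CL group (0.68, adjusted p = 0.256), where the number of genes called also fell to 7 from 393, without mouse 1 of the 1-day cold group (0.58, 0.0604) and without mouse 1 of the 7-day CL group (0.64, 0.105). The difference between any of the groups stayed called without each mouse in turn, with adjusted p up to 0.0028. DESeq2 gave 0.67 for CL minus cold (unadjusted p = 0.00758) and no adjusted p.

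Most of the adipocyte signal counted as Fcgr3 lay far upstream of the coding start of Fcgr3-201 and Fcgr3-204, and around the start of the longer transcript Fcgr3-202. The 3 peaks farther upstream (+314, -421 and -1854) held 343 of the 462 counts (74.2%), and the 4 peaks at the coding start and inside the gene held 119 (25.8%). Each of the 3 upstream peaks overlaps a tRNA gene of the RefSeq annotation. The +314 peak holds all 72 bases of the glycine tRNA gene n-TGtcc1 (chr1:171064699-171064770). The -421 peak, printed above, holds all 72 bases of the aspartic acid tRNA gene n-TDgtc3 (chr1:171065358-171065429), and the -1854 peak overlaps 20 of the 71 bases of the glycine tRNA gene n-TGgcc12 (chr1:171066631-171066701). No other peak of the 9 genes overlaps a tRNA gene. This was looked at after the values were seen.

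At the 4 peaks at the coding start and inside the gene, macrophages had 27.1 CPM and white adipocytes 5.20, which is 19.2% of the macrophage level. The 2 cell types differed in which of these peaks were open. The +11360 peak held 84 of the 119 counts of white and beige adipocytes and 3 macrophage counts. The macrophage peak +5513 held 6 adipocyte and 31 macrophage counts. At the 3 tRNA peaks, macrophages had 7.27 CPM and white adipocytes 15.0, or 206.1%. Summed, these 3 peaks were highest in white adipocytes among the clusters. By single peak, +314 was highest in vascular endothelial cells, -421 in the T cells outside CD4 and CD8, and -1854 in white adipocytes. In adipocytes the tRNA peaks had 43.6 ± 20.4 CPM after 1 day of CL, 17.7 ± 6.93 after 3 days and 5.86 ± 1.13 after 7 days (n = 3 each). They had 7.60 ± 4.43 at day 0, and in the cold 13.6 at day 1, 7.31 at day 3 and 13.9 at day 7. The 4 other peaks had group means between 2.63 and 6.93 CPM, with overlap between all groups. With the tRNA peaks alone as the gene's value, the groups differed (edgeR adjusted p = 3.04e-12) and CL exceeded cold by 0.80 (SE 0.19, adjusted p = 0.00818). These peaks were split off after their values were seen, so both p-values only describe the part that held the rise and are not independent evidence. The 4 other peaks alone did not pass the filter on low counts and have no test.

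**Figure D4:**
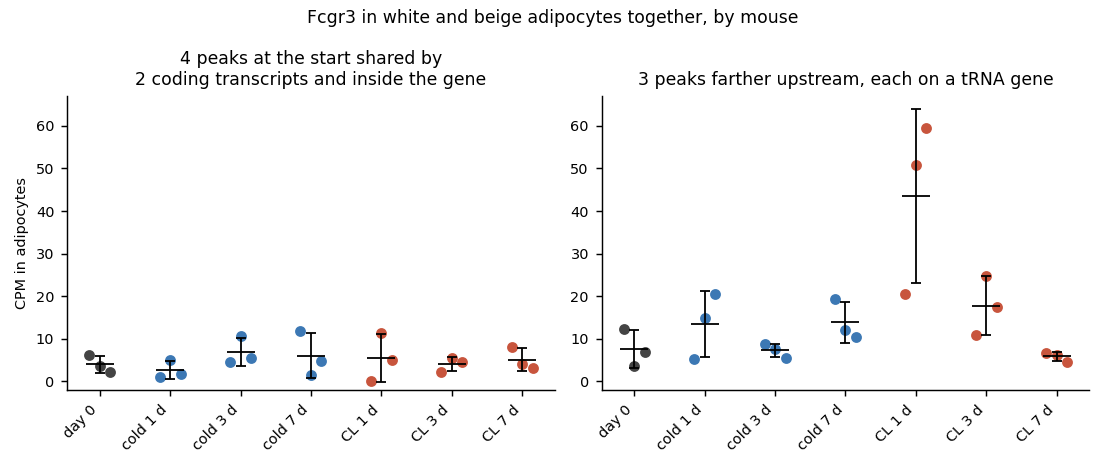
Each point is 1 mouse, with the 7 groups on the x axis and the Fcgr3 CPM in adipocytes on the y axis; horizontal bars are means and error bars the SD (n = 3). The left panel holds the 4 peaks from +4386 to +11360, which stay between 0 and 11.8 CPM. The right panel holds the 3 peaks on tRNA genes (+314, -421 and -1854), which reach 59.5 CPM after 1 day of CL.

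Peaks on tRNA genes elsewhere were also highest after 1 day of CL and next after 3 days of CL, while the order of the other 5 groups differed from that of the Fcgr3 peaks. RefSeq lists 403 tRNA genes on the chromosomes, and 181 peaks outside the 9 genes overlap at least 1 of them. In adipocytes these 181 peaks summed to 6900.8, 5712 and 6488.3 CPM in the mice of the 1-day CL group, and to 4692.2, 4396.9 and 4286.2 at day 0. The mean was 6367 ± 603.6 after 1 day of CL, 5484.7 ± 561.3 after 3 days and 4461.6 ± 286.8 after 7 days, and in the cold 5398.2 at day 1, 4431.9 at day 3 and 4817.7 at day 7. Of the 181 peaks, 51.4% had their highest group mean after 1 day of CL, against 21.1% of 189363 other peaks. Macrophages and white adipocytes had similar sums at these peaks, with 4887.9 and 5051 CPM. Because these peaks were chosen after the Fcgr3 values were seen, no test was made. Peaks on tRNA genes can also hold the promoters of other genes, and tRNA genes have near-identical copies between which short reads can be hard to place.

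The summed level of macrophage markers in adipocytes was also highest after 1 day of CL. The 15 markers summed to 674 ± 46.2 CPM after 1 day of CL (626.5 to 718.8) and to 538.6 ± 61.4 at day 0, with means between 510.9 and 617.8 in the other 5 groups, of which 3-day and 7-day CL overlapped it (up to 640.5 and 662.7). Of the 584.8 CPM in white adipocytes, Cx3cr1 gave 301.8 and Mertk 159, and these genes were highest in T cells and in the VEC cluster, not in macrophages. In macrophages the sum of the 15 was between 1083.9 and 1188.3 in every group. Of the 9 markers tested in adipocytes, F13a1, Cx3cr1 and Mertk differed between any of the groups (edgeR adjusted p = 0.0111, 0.0181 and 0.0396, where 13.7% of all genes were called), and none was called for treated minus day 0 or CL minus cold. The part of these markers in the Fcgr3 value was not tested. The 4 Fcgr3 peaks at the coding start and inside the gene, of which +5513 is highest in macrophages, +4386 and +6326 in CD4 T cells and +11360 in white adipocytes, had 5.43 ± 5.65 CPM after 1 day of CL and 4.00 ± 1.96 at day 0.

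The check of stray signal asked whether mice with more myeloid nuclei had more of these genes in their adipocyte nuclei. Over the 21 mice, Fcgr3 in adipocytes and the share of macrophage and dendritic nuclei had a Pearson's r of 0.27 (permutation p = 0.218, adjusted over 3 relations 0.327) and a Spearman's rho of 0.00 (permutation p = 0.998, adjusted 0.998). Leaving out the 2 mice whose share lay farthest from the median gave 0.03, and leaving out mouse 3 of the 1-day CL group gave -0.16. Within groups r was 0.30 (permutation p = 0.658), and 0.22 without the 2 mice farthest from the median. The positive sign of r over all mice, not within groups, rested on mouse 3 of the 1-day CL group. No relation passed the threshold. Of the adipocyte Fcgr3 counts, 74.2% lay at the tRNA peaks, where macrophages had 7.27 CPM and white adipocytes 15.0. The relation therefore cannot decide whether stray myeloid reads were present.

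For the other 8 genes summed, r was -0.33 (permutation p = 0.143, adjusted 0.327) and rho -0.27 (permutation p = 0.228, adjusted 0.683). With the 2 mice of most extreme share left out r was -0.48, and within groups it was 0.36 (permutation p = 0.418). Mrc1 had the most adipocyte counts of the 8 genes (733), with 38.7% at +66149 and 32.7% at +8515. In macrophages these peaks held 13.5% and 4% of the Mrc1 counts, so the sum cannot decide on stray myeloid reads either. The 6 B cell markers in adipocytes against the share of B cell nuclei gave r = 0.11 (permutation p = 0.641, adjusted 0.641) and rho = -0.07 (permutation p = 0.774, adjusted 0.998), with r = -0.14 after leaving out the 2 mice of most extreme B cell share and 0.11 within groups (permutation p = 0.456).

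**Figure D5:**
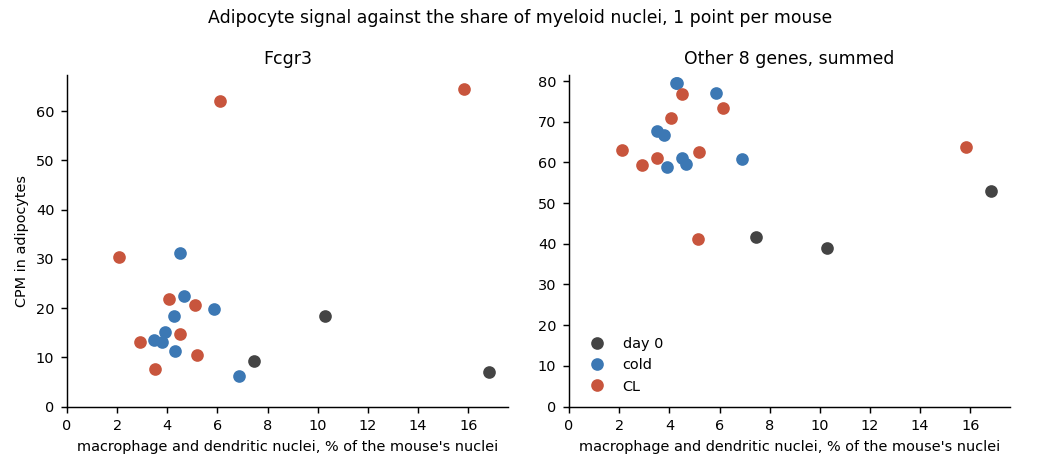
Each point is 1 of the 21 mice, with the share of macrophage and dendritic nuclei in % on the x axis and the CPM in adipocytes on the y axis, for Fcgr3 (left) and the other 8 genes summed (right). The 2 mice with Fcgr3 above 60 CPM had 6.12% and 15.8% myeloid nuclei, and the day 0 mouse with 16.8% had 7.05 CPM.

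Trem2 in adipocytes was lower at day 0 than in any treated mouse. The day 0 mice had 4.11, 3.53 and 2.32 CPM, from 5 counts in all. Cold gave 6.28, 9.96 and 11.2 at day 1, 8.38, 6.11 and 11.2 at day 3, and 12.9, 9.02 and 11.9 at day 7. CL gave 20.5, 11.3 and 12.2 at day 1, 8.78, 12.1 and 11.2 at day 3, and 9.44, 9.39 and 7.65 at day 7. The 3 day 0 mice and the 18 treated mice did not overlap, but the counts are few. A single count adds 2.05 CPM in day 0 mouse 1 and 3.53 CPM in day 0 mouse 2. With 1 more count in either mouse the groups would overlap. The 20.5 CPM of 1-day CL mouse 1 was a single count.

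Trem2 rose by 1.29 on the log2 scale in treated adipocytes (SE 0.40, edgeR adjusted p = 0.0448), where 4.16% of genes were called. In adipocytes the start peak, +16, held 202 of the 217 Trem2 counts, and 4 of the 5 at day 0. The +1033 peak had group means of at most 1.22 CPM. Macrophages had counts at both peaks, 14 of 32 at +16 and 18 at +1033. The cell source of the adipocyte signal was not tested. CL minus cold was 0.18 (SE 0.19, adjusted p = 0.69), and the difference between any of the groups had an adjusted p of 0.135. The call was near the threshold. It was lost without each day 0 mouse, with adjusted p up to 0.361. Leaving out mouse 2 or 3 of the 1-day cold group also lost it (0.0504 and 0.0582). So did the mouse number as a block (1.30, adjusted p = 0.0512) and nuclei of at least 1000 entries (1.26, adjusted p = 0.063). With promoter peaks only, a setting that kept both Trem2 peaks, the call was lost too (1.34, adjusted p = 0.0984). Trem2 passed the filter on low counts in 11 of the 21 fits that left out 1 mouse, and it has no test in the other 10.

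White and beige nuclei are pooled in these values, and beige nuclei were between 7.69% and 12.2% of the adipocyte nuclei in the day 0 mice and between 7.35% and 32.5% in treated mice. In white adipocytes alone Trem2 did not pass the filter and has no test. There the day 0 mice had 0, 2.48 and 4.79 CPM and the treated mice 5.30 or more, except for mouse 1 of the 1-day CL group, which had 0 counts in 23 nuclei. In beige adipocytes alone the day 0 mean was 20.8 ± 36.0 CPM from 1 count, and the means of the treated groups ran from 7.06 (1 mouse) to 22.6. The part of the beige share in the Trem2 difference was not tested.

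Mrc1 in adipocytes differed between the groups (edgeR adjusted p = 0.00742), with the highest group means at day 7. Day 0 had 20.5, 28.2 and 23.2 CPM. After 1 day, cold gave 24.1, 24.9 and 18.7 and CL 20.5, 28.2 and 25.1. After 3 days, cold gave 30.2, 41.3 and 31.4 and CL 37.3, 27.6 and 37.7. After 7 days, cold gave 31.1, 39.1 and 35.9 and CL 43.8, 38.6 and 36.7. The 6 mice of day 7 were above the 9 mice of days 0 and 1, and overlapped those of day 3. The gap to days 0 and 1 was smaller than a single count adds in day 0 mouse 2 (3.53 CPM) or 1-day CL mouse 2 (5.64 CPM). The 20.5 CPM of 1-day CL mouse 1 was a single count. The call was lost without mouse 1 of the 7-day CL group (adjusted p = 0.133). Treated minus day 0 was 0.38 (SE 0.21, adjusted p = 0.349) and CL minus cold 0.14 (SE 0.12, adjusted p = 0.64). By peak, +66149 had a mean of 8.67 CPM at day 0, 16.4 after 7 days of cold and 16.4 after 7 days of CL. The +8515 peak had 9.45, 10.1 and 14.6, and the macrophage peak +20727 had 0.684, 0.358 and 1.58.

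Csf1r was the remaining member tested in adipocytes and was not called. Its mice ran from 4.64 to 12.3 CPM at day 0, and the adjusted p between any of the groups was 0.19. Treated minus day 0 was 0.40 (SE 0.35, adjusted p = 0.6) and CL minus cold -0.06 (SE 0.23, adjusted p = 0.935). The other 5 genes (Adgre1, Cd163, Fcgr1, Fcgr2b and Fcgr4) had between 16 and 95 counts over all adipocytes and did not pass the filter on low counts. Of the 9 genes, 2 were therefore called between any of the groups, 1 for treated minus day 0 and 1 for CL minus cold, each from the 4 tested. Among all 14387 genes tested the shares called were 13.7%, 4.16% and 2.73%. With 4 genes, 1 of them named in the choice, these counts say nothing about the 9 genes as a set.

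Pathway genes around these receptors were read against the 13.7% of all genes that were called in adipocytes between any of the groups. Inpp5d and Ptpn6, inhibitory phosphatase genes, were called of 15 tested genes of Fc receptor signalling (adjusted p = 0.0392 and 0.048), and Cebpa and Irf8 of 10 of the CSF1R and lineage list (5.86e-04 and 0.043). Fabp4 and Apoe were called of 7 in the TREM2 and lipid list (4.70e-07 and 0.0205) and Clec10a of 4 scavenger genes (0.0477). For treated minus day 0, where 4.16% of all genes were called, Cebpa, a factor that adipocytes use too, fell by 0.37 (SE 0.11, adjusted p = 0.0474) and Fabp4, an adipocyte fatty acid carrier, fell by 0.34 (SE 0.10, adjusted p = 0.0444). No gene of these 4 lists was called for CL minus cold. Over the tested genes of each list the median log2 difference of treated minus day 0 was -0.03, -0.10, -0.12 and -0.10, where the median of all genes was -0.01.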

How the data were processed

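Nuclei of inguinal white adipose tissue from 21 mice were profiled by combinatorial-index ATAC-seq. The authors aligned reads to mm10 with Bowtie2, removed reads of low mapping quality with SAMtools, called peaks with MACS2 and clustered with Signac; versions are not given in the labels. The deposited matrix holds 1 where a nucleus has reads in a peak, so summed values do not count fragments. A nucleus counts once for each peak of a gene in which it has reads. Mouse, group and cluster came from the deposited table of nuclei. Here entries were summed per mouse and cluster over the peaks of each gene (GENCODE vM21), with at least 10 nuclei per library, and scaled to CPM over all peaks on genes. Groups were compared with edgeR 4.0.16 (quasi-likelihood, TMM, filterByExpr with a minimum count of 10) and Benjamini-Hochberg adjustment over all genes tested, with a threshold of 0.05. The step was tested on simulated data. Relations over mice used 100000 permutations, two-sided. Mice are the replicates, and whether animals shared a cage or day is not given in the sources used here.

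The 9 genes and all lists (markers of macrophages and B cells, Fc receptor signalling, CSF1R and lineage factors, TREM2 and lipid handling, scavenger genes) were chosen with earlier results of these data known. Named besides the 9 genes are list genes that passed the threshold, the 3 genes most like each member among those with at least 20 CPM, and the strongest macrophage peaks; the tRNA genes, other peaks and the counts by list were named after their values were seen. Alternatives were DESeq2 1.42.0, its size factors, no filter, promoter peaks only, at least 5 or 30 nuclei, nuclei with at least 1000 entries, white adipocytes only, the mouse number as a block and leaving out each mouse. The study ran 3 independent batches, and which mice each held is not given in the sources used here; all shared barcodes lie between mice of the same treatment and number. By their deviations the numbers 1 to 3 were not taken to pair the mice: deviations of mice with the same number had a mean correlation of 0.00 in size, and 6 of 21 mice were closest to their own number.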

Additional observations from a re-analysis of the deposited data

Results flagged for a closer look

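Fcgr3 in adipocytes was the only member for which CL and cold differed by the fitted contrast, out of the 4 tested in adipocytes, 4 in B cells and 2 in macrophages, while 393 adipocyte genes were called in all. The difference was 0.77 on the log2 scale (SE 0.16, edgeR adjusted p = 0.0024), with the 1-day CL mice at 20.5, 62.0 and 64.5 CPM and the 1-day cold mice at 6.28, 19.9 and 22.4. Fcgr3 in adipocytes was named in the choice of genes, so this p-value is not independent evidence. The contrast is over the 3 days, and at day 7 the CL mice (14.8, 10.4 and 7.65) were lower on average than the cold mice (31.1, 13.5 and 15.1). By peak, the 3 peaks on tRNA genes held most of the day 1 difference (43.6 ± 20.4 against 13.6 ± 7.74 CPM after 1 day, 5.86 ± 1.13 against 13.9 ± 4.77 after 7 days), while the 4 peaks at the coding start and inside the gene had 5.43 ± 5.65 and 2.63 ± 2.07 after 1 day. The adjusted p ranged from 0.000383 to 0.256 when single mice were left out, and the call was lost without mouse 3 of the 1-day CL group (0.256), mouse 1 of the 1-day cold group (0.0604) or mouse 1 of the 7-day CL group (0.105).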

How the results depend on the processing

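Depth limits most: 7 of the 9 genes had too few macrophage counts for a test. With DESeq2 the adipocyte calls were 430 for any group, 258 for treated minus day 0 and 47 for CL minus cold (1970, 598 and 393 with edgeR), the B cell calls 44, 13 and 0 (244, 85 and 2), and the dendritic cell calls 0 and 0 for the first 2 contrasts (1 and 1). Promoter peaks alone gave 463, 95 and 49 in adipocytes, 29, 12 and 0 in B cells, 0 and 0 in dendritic cells, 1 in macrophages for any group, and 3 of 9 genes highest in macrophages in place of 6. Nuclei with at least 1000 entries gave 86, 22 and 1 in B cells and 0 in dendritic cells for any group. In macrophages for any group no filter gave 7 and at least 30 nuclei gave 1. In dendritic cells any group also fell to 0 with no filter, at least 30 nuclei or the replicate block, and treated minus day 0 to 0 with at least 5 or 30 nuclei or the replicate block, and to 3 with size factors. The replicate block gave 1859, 582 and 382 in adipocytes, and Trem2 lost its call (adjusted p = 0.0512). The cause of these shifts was not tested.

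Leaving out single mice gave, for any group, treated minus day 0 and CL minus cold, 0 to 17, 0 to 0 and 0 to 2 genes in macrophages, 0 to 1, 0 to 3 and 0 to 0 in dendritic cells, 1526 to 2149, 206 to 653 and 7 to 466 in adipocytes, and 157 to 320, 8 to 107 and 0 to 5 in B cells. In adipocytes treated minus day 0 fell to 318, 265 and 206 without day 0 mouse 1, 2 or 3. CL minus cold fell to 7 without 1-day CL mouse 3, 148 without 1-day cold mouse 1, 228 without 3-day CL mouse 2, 246 without 7-day cold mouse 3 and 200 without 7-day CL mouse 1.

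Some log2 differences that were not called changed sign. In nuclei with at least 1000 entries, macrophage Mrc1 (treated minus day 0) was -0.06, macrophage Csf1r (CL minus cold) 0.03, B cell Fcgr2b (treated) 0.01 and B cell Mrc1 (CL minus cold) -0.03. Over the mice left out, macrophage Mrc1 ranged from -0.15 (without 3-day CL mouse 3; -0.10 without day 0 mouse 1) to 0.12 for treated minus day 0 and from -0.11 (without 3-day CL mouse 3) to 0.41 for CL minus cold. Macrophage Csf1r (CL minus cold) ranged from -0.27 to 0.01. Adipocyte Csf1r ranged from -0.05 (without day 0 mouse 3) to 0.70 for treated minus day 0 and from -0.22 to 0.01 for CL minus cold. In B cells Adgre1 (treated) ranged from -0.26 to 0.11 (0.02 without day 0 mouse 3), Mrc1 (treated) from -0.11 to 0.17 and Mrc1 (CL minus cold) from -0.00 to 0.10.

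The relation of Fcgr3 to the myeloid share ranged from -0.16 to 0.53 over the mice left out and was -0.04 for the 4 peaks at the coding start, chosen after seeing the data. That of the other 8 genes ranged from -0.42 to -0.25, and was 0.08 with promoter peaks and 0.36 within groups. That of the B cell markers ranged from -0.11 to 0.20, with -0.11 without 1-day CL mouse 3.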

Other observations

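Upstream of the Fcgr3 window, 2 of 5 further peaks outside any gene were also highest in adipocytes after 1 day of CL, and the other 3 were not. The peak 9.5 kb upstream of the GENCODE start (chr1:171074326-171074616) had a mean of 9.22 CPM after 1 day of CL and 1.18 at day 0, and the one at chr1:171081900-171082160 had 10.6 and 0.684. Both overlap glycine tRNA genes of the same repeated cluster. Of the other 3, the 1 at chr1:171078086-171078286 was lowest after 1 day of CL (0.239 CPM against 3.04 at day 0), the 1 at chr1:171094396-171094644 had 0.239 against 1.18, and the 1 at chr1:171101742-171103483 was highest after 3 days of CL (75.2 CPM, 70.8 after 1 day and 36.7 at day 0).

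In adipocytes the B cell factor gene Pax5 fell by 0.51 on the log2 scale in treated mice (SE 0.13, edgeR adjusted p = 0.0113). The adipocyte gene Adipoq fell by 0.71 (SE 0.11, adjusted p = 5.95e-06), Cidec by 0.36 (SE 0.10, adjusted p = 0.0187) and Plin1 by 0.31 (SE 0.09, adjusted p = 0.0286), and Pparg rose by 0.33 (SE 0.08, adjusted p = 0.0102). In B cells Cd36, a fatty acid transporter gene and adipocyte product, rose by 0.60 (SE 0.14, adjusted p = 0.0108).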
